A study of Homo sapiens with 15 samples.

Results

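ABCA1, ABCG1, NR1H2, NR1H3, MYLIP and LIPG are 6 genes of cholesterol efflux, its sterol-sensing receptors and endothelial lipase. They were chosen by name from a table of 60675 genes, with their measured levels in these same libraries already known, so every level, fold change and call given for them below is a description and supports nothing further. Of the 6 genes, 5 passed the filter on low counts and were among the 17780 genes tested. ABCG1 did not pass.

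Ribosomal-RNA-depleted RNA was sequenced from HT1080 cells, an established human fibrosarcoma line. The cells carried the HDAC4 genotype H803A (named KDAC4 H803A in the sample titles), the HDAC4 genotype H976Y (KDAC4 H976Y) or the HDAC7 genotype H709A (KDAC7 H709A), all untreated, or were wild type and given 1 µM TMP195 for 2 days. The genes code for the class IIa lysine deacetylases KDAC4 and KDAC7, and TMP195 inhibits that class. The series speaks of inactivated or enhanced enzymes. Replacing an active-site histidine by alanine is the inactivating kind. A tyrosine at the class IIa position of H976Y is the change known to raise activity. The labels do not say whether a genotype is 1 clone or several, or whether samples of a group are separate cultures, so the spread between samples may be technical. Untreated wild-type cells were not analysed here, so no comparison below isolates the drug or 1 mutation: each sets 2 altered states side by side.

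Cells lower their free cholesterol by pumping it out. ABCA1 moves cholesterol and phospholipid onto lipid-poor apolipoprotein A-I, and ABCG1 moves cholesterol onto larger high-density lipoprotein. The liver X receptors NR1H3 (LXRα) and NR1H2 (LXRβ) pair with retinoid X receptors, are activated by oxysterols, and turn on both transporters as well as MYLIP, a ubiquitin ligase that marks lipoprotein receptors for breakdown. LIPG, endothelial lipase, is a secreted phospholipase that acts on high-density lipoprotein. It is best known in endothelial cells.

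The table held 14 count libraries. The column of a further library, KDAC4 H803A replicate 4, held transcript lengths rather than counts and was left out. Total counts ran from 6151417 to 24297525. The 4 KDAC4 H976Y libraries had 16.1 to 31.5% of their counts on mitochondrial ribosomal RNA, against at most 0.345% in the other 10, and 0.742 to 0.937% on small nucleolar RNA, against 0.14% or less. Over all genes, 3 libraries had their closest library in another group. KDAC4 H803A replicate 1 lay nearest to KDAC7 H709A replicate 4, with a mean chi-square of 2.60 per gene, the smallest of any pair, against 225 and 263 with the other libraries of its own label. KDAC7 H709A replicate 4 likewise lay nearest to that library, with 78.0 to 299 within its label. KDAC7 H709A replicate 1 lay nearest to KDAC4 H803A replicate 3 (35.2), with at least 174 within its label. Whether a library carries the label of another group was not tested, so each group stands for the libraries as labelled. Group means include these 3 libraries unless stated, and fold changes of the groups they belong to are also given without them. In the fit without them, 31.8 to 64.5% of all genes were called, so a call gained there is read against that share. Mesenchymal markers of a fibrosarcoma (9 genes, VIM and FN1 among them) summed to between 3688 and 8355 CPM, counts per 1000000 counts of the scaled library. Not all 9 were high: S100A4 was below the filter, and NT5E and THY1 reached at most 2.60 and 1.75 CPM. FN1 averaged 2188 CPM in KDAC4 H976Y, 1003 with TMP195, 666 in KDAC7 H709A and 482 in KDAC4 H803A. The 8 endothelial markers summed to 68.6 to 156 CPM, with ERG at 0 in every library and PECAM1, CDH5 and VWF below the filter. The 8 macrophage markers summed to at most 4.95 CPM, with PTPRC and TYROBP at 0. Hepatocyte, adipocyte and epithelial markers reached at most 1.75, 1.41 and 0.282 CPM.

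A level per length is CPM per kilobase of the longest annotated transcript. On that per-length scale, averaged over the 14 libraries, NR1H2 was highest at 21.9, followed by ABCA1 at 5.08, MYLIP at 2.95, LIPG at 1.59, NR1H3 at 1.52 and ABCG1 at 0.00822. The ABCA1 and LIPG averages hide large differences between libraries. The highest ABCA1 level was 68.2 times the lowest, and the highest LIPG level was 35.7 times the lowest, whereas the same ratio was 2.07 for NR1H2, 2.51 for NR1H3 and 2.92 for MYLIP.

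**Figure D1:**
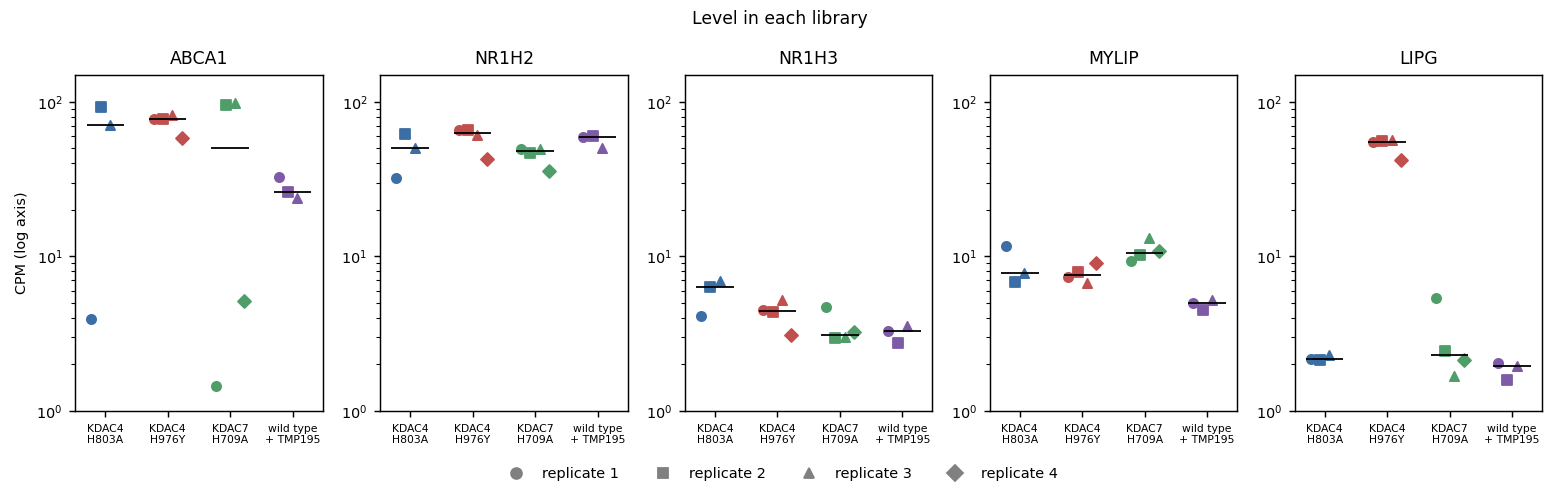
Level of the 5 genes that passed the filter in each of the 14 libraries (CPM on a log axis; points are libraries, shaped by replicate number; black lines are group medians). LIPG is high only in the 4 KDAC4 H976Y libraries (41.8 to 56.6 CPM), ABCA1 is low in 1 KDAC4 H803A and 2 KDAC7 H709A libraries, and MYLIP is lowest in the TMP195 libraries (4.52 to 5.22 CPM).

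LIPG was the gene among the 6 that differed most between groups. Its gene lies on the plus strand at chr18:49560699-49599182 (GRCh38, GENCODE v29) and is ENSG00000101670 in the table. No annotated gene overlaps it, although fractional expected counts in 11 libraries show that some of its reads were shared with other transcripts. The RefSeq promoter window that starts outside annotated exons, chr18:49561891-49562030 (GRCh38.p14, plus strand, bases -166 to -27 from the RefSeq start), is shown because LIPG is the gene with the largest difference; it has no capitals because no motif searched occurs in it. The RefSeq start, base 49562057, lies 1358 bases inside the GENCODE span given above, so the stretch is upstream of that start and not of the whole span.

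LIPG upstream: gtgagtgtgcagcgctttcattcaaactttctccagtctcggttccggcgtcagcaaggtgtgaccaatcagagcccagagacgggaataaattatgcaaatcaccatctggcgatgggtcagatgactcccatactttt

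In KDAC4 H976Y, LIPG stood at 55.2, 55.4, 56.6 and 41.8 CPM. In KDAC4 H803A it stood at 2.15, 2.13 and 2.30 CPM, in KDAC7 H709A at 5.41, 2.43, 1.69 and 2.14 CPM, and with TMP195 at 2.03, 1.59 and 1.94 CPM. The 4 KDAC4 H976Y libraries lay above all 10 others with no overlap, and the highest of the 10 was KDAC7 H709A replicate 1. The group means were 52.3 ± 6.99 CPM (SD, n = 4) in KDAC4 H976Y, 2.92 ± 1.69 (n = 4) in KDAC7 H709A, 2.20 ± 0.0930 (n = 3) in KDAC4 H803A and 1.85 ± 0.234 (n = 3) with TMP195. The first step of that order exceeded the spread and the next did not. KDAC4 H803A and TMP195 libraries did not overlap, but their log2 fold change, -0.24 ± 0.36 (SE), was smaller than its error and was not called. Against KDAC4 H976Y, the log2 fold change of LIPG was -4.57 ± 0.38 (SE) in KDAC4 H803A, -4.18 ± 0.33 in KDAC7 H709A and -4.81 ± 0.38 with TMP195, which are levels 23.7, 18.2 and 28.1 times lower. These 3 comparisons share the KDAC4 H976Y libraries. In the fit of all genes, LIPG was called in each of the 3 and in none of the others, so KDAC4 H976Y was set apart on the high side; 290 of 17780 genes (1.63%) were set apart in that way.

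Several library properties moved with this LIPG difference. The KDAC4 H976Y libraries are also those with high mitochondrial ribosomal and small nucleolar RNA, and the part of these RNAs in the result was not tested. With mitochondrial and small nucleolar RNA genes removed before scaling, the 3 log2 fold changes were -4.57, -4.18 and -4.81. That removal bears on the scaling alone. The high shares of these RNAs cannot be told apart from the KDAC4 H976Y label here. Without the 3 libraries that lay nearest to another group, the LIPG means were 2.22 ± 0.121 CPM (n = 2) in KDAC4 H803A and 2.06 ± 0.523 (n = 2) in KDAC7 H709A. The summed endothelial markers were 68.6 to 90.7 CPM in KDAC4 H976Y and 80.4 to 156 CPM elsewhere, nearly all of it TIE1 (80.1 ± 9.78 CPM in KDAC4 H976Y). KDR, another endothelial receptor, was 1.68 ± 0.615 CPM in KDAC4 H976Y and 1.72 ± 0.620 in KDAC7 H709A. It was 0.880 ± 0.366 in KDAC4 H803A and 0.296 ± 0.154 with TMP195. Below the filter, CDH5 was at 0 in KDAC4 H976Y and 0.317 to 1.64 CPM in KDAC4 H803A, and VWF averaged 0.0867 and 0.763 CPM in these groups. PECAM1 was 0.433 to 0.638 CPM in KDAC4 H976Y, 0 in KDAC4 H803A, at most 0.267 with TMP195 and at most 1.82 in KDAC7 H709A. Of the 4 endothelial markers tested, KDR was the 1 called, lower with TMP195 than in KDAC4 H976Y and KDAC7 H709A. It reached at most 2.49 CPM in any library. Of all genes, 8.55 and 4.31% were called lower in these 2 comparisons. The part of these markers in the LIPG result was not tested. The genes around LIPG did not share its difference: the 47 tested genes within 5 Mb had median log2 fold changes against KDAC4 H976Y of -0.20 in KDAC4 H803A, -0.0049 in KDAC7 H709A and -0.31 with TMP195.

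By Pearson correlation of log2 CPM over the 14 libraries, the 3 genes most like LIPG among the 17775 other tested genes were DOCK8 (r = 0.99), CCDC30 (0.98) and LINC00958 (0.98). The points share library and depth, and each correlation rests on the step between 4 libraries and 10. DOCK8, an exchange factor for the GTPase CDC42, lay between 5.56 and 9.20 CPM in KDAC4 H976Y and at or below 0.193 CPM in all other libraries. CCDC30 was 4.33 to 6.39 CPM in KDAC4 H976Y and at most 1.54 CPM elsewhere. LINC00958, a long noncoding RNA, was 5.74 to 8.24 CPM there and at most 0.772 CPM elsewhere, again highest in KDAC7 H709A replicate 1.

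ABCA1 followed another pattern, split within 2 of the groups. The gene (ENSG00000165029) lies on the minus strand at chr9:104781002-104928237. An antisense gene, AL359182.1, overlaps its start; without a stated strand setting their reads cannot be told apart, but it reached at most 0.412 CPM. The ABCA1 promoter is shown because it holds the sterol-receptor element through which liver X receptors act. The first stretch is chr9:104928238-104928405 (GRCh38.p14, minus strand, bases -250 to -83), with an E-box in capitals. The second is chr9:104928209-104928224 (bases -69 to -54), printed on the plus strand, with the paired half-sites of the receptor element in capitals. These bases are counted from the RefSeq start, which lies inside the GENCODE span given above. The second stretch is therefore upstream of that start but within the span.

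ABCA1 upstream: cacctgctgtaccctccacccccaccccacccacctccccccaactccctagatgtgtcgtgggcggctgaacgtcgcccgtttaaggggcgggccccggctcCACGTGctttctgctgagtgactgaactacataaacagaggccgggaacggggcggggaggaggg

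ABCA1 receptor element: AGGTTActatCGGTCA

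The windows searched were the 300 bases from 250 before to 50 after each RefSeq start, on both strands. The table held 8 windows for 5 of the 6 genes; the one missing was ABCG1. The ABCA1 form of the element (AGGTTA and CGGTCA spaced by 4 bases) occurred in 1 of 35116 promoters, that of ABCA1 itself. Its half-sites are those of that promoter, so the match there was fixed in advance and nothing is read from its rarity. The consensus form (AGGTCA repeated at the same spacing) occurred in 7 promoters, 0.0199%, and in none of the 6 genes' windows. The E-box CACGTG, held by 7.26% of promoters, occurred among these genes only in ABCA1, as did TATAAA, held by 11.5% and found at bases -31 to -26. A single half-site AGGTCA, held by 13.8% of promoters and counted also inside the consensus form, was found only in NR1H3, at bases -140 to -135. The MEF2 site, held by 2.99% of promoters, was found in none of the windows. A match is a description of letters, and no match says only that these letters are not in this window.

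In KDAC4 H803A, ABCA1 stood at 3.93, 92.1 and 70.9 CPM. In KDAC7 H709A it stood at 1.45, 95.3, 98.7 and 5.12 CPM. In KDAC4 H976Y it stood at 77.8, 77.9, 82.6 and 58.3 CPM, and with TMP195 at 32.8, 26.1 and 23.7 CPM. The variant libraries thus fell at either of 2 levels, high in 8 and low in 3, and the TMP195 libraries lay between them. The 3 low libraries are KDAC4 H803A replicate 1 and KDAC7 H709A replicates 1 and 4, the same 3 whose closest library lay in another group. None was the shallowest library: their total counts were 15640844, 10391409 and 24297525, of which the first and last are the largest of the 14. ABCA1 had 62, 15 and 122 expected counts in them.

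The group means of ABCA1 were 74.2 ± 10.8 CPM (SD, n = 4) in KDAC4 H976Y, 55.6 ± 46.0 (n = 3) in KDAC4 H803A, 50.1 ± 54.1 (n = 4) in KDAC7 H709A and 27.5 ± 4.69 (n = 3) with TMP195. No neighbours in that order differed beyond their spread. TMP195 against KDAC4 H976Y was the sole comparison in which the groups did not overlap, with a log2 fold change of -1.43 ± 1.12 (SE). The other 5 log2 fold changes lay between -1.01 and -0.15 with SEs of 1.00 to 1.16, and ABCA1 was called in none of the 6 comparisons. Without the 3 libraries, ABCA1 was 81.5 ± 14.9 CPM (n = 2) in KDAC4 H803A and 97.0 ± 2.44 (n = 2) in KDAC7 H709A, and TMP195 lay lower than KDAC4 H803A, KDAC4 H976Y and KDAC7 H709A by log2 fold changes of -1.56 ± 0.17, -1.44 ± 0.15 and -1.82 ± 0.17. All 3 were then called, but in that fit so were 47.9, 53.9 and 45.7% of all genes.

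**Figure D2:**
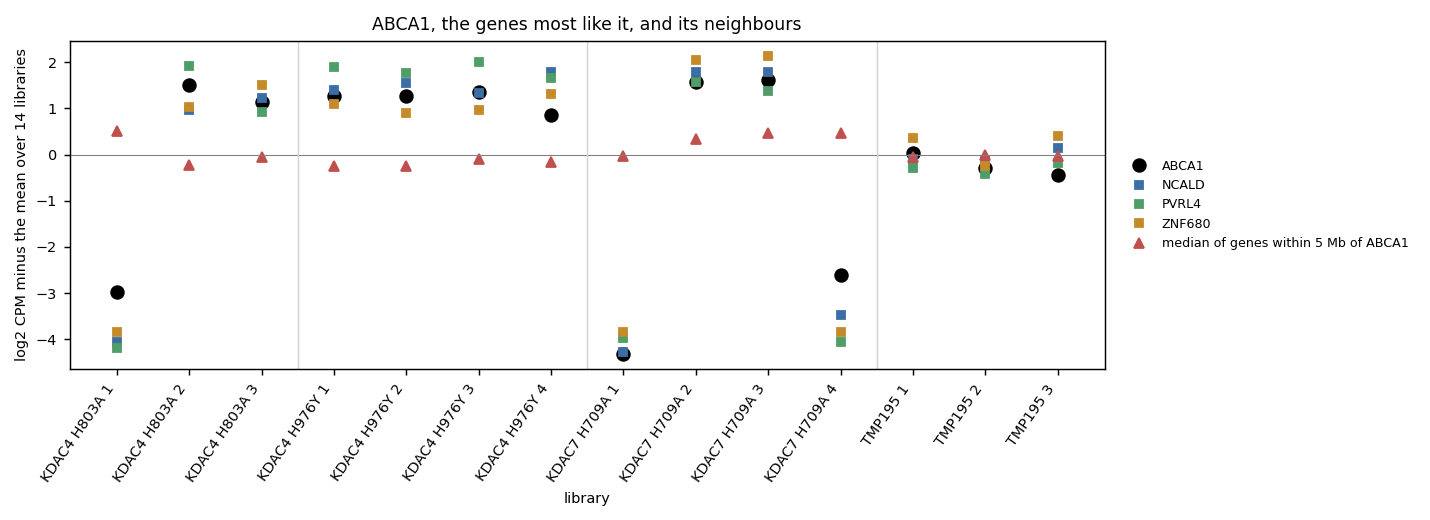
ABCA1, the 3 genes with the most similar pattern and the median of the 39 tested genes within 5 Mb of ABCA1, as log2 CPM minus the mean over 14 libraries (vertical axis) in each library (horizontal axis; grey lines divide the groups). ABCA1 lies at -2.98, -4.32 and -2.61 in the 3 low libraries, where NCALD, PVRL4 and ZNF680 are low as well and the median of the neighbouring genes stays between -0.03 and 0.51.

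The drop of ABCA1 in those 3 libraries was not shared by the genes beside it on chromosome 9. The median deviation of the 39 tested genes within 5 Mb was 0.51, -0.03 and 0.48 there, and -0.25 to 0.46 in the others. The 3 genes most like ABCA1 over the 14 libraries lie on other chromosomes: NCALD on chromosome 8 (r = 0.98), PVRL4 on chromosome 1 (0.97) and ZNF680 on chromosome 7 (0.96). NCALD, a neuronal calcium sensor, was 0.193 to 0.461 CPM in the 3 low libraries, 6.17 to 7.49 CPM with TMP195 and 13.4 to 23.8 CPM in the other variant libraries. PVRL4, the adhesion protein nectin-4, was at most 0.0965 CPM in the 3 low libraries, 2.87 to 3.41 CPM with TMP195 and 7.57 to 16.2 CPM in the rest. ZNF680, a zinc-finger gene, was at 0 in all 3, 1.77 to 2.88 CPM with TMP195 and 4.15 to 10.0 CPM in the rest. These correlations rest mainly on the same 3 libraries and are given without a test. In bulk RNA, fewer cells with a transcript and less transcript per cell cannot be told apart, so the intermediate TMP195 levels may be read either way.

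ABCG1, the partner transporter (ENSG00000160179, chr21:42199689-42297244), had at most 3 counts in every group. RNA5SP492, a pseudogene inside it, was listed at 0 in every library. ABCG1 had 0 counts in all 4 KDAC7 H709A libraries, 0, 1 and 0 in KDAC4 H803A, 0, 0, 1 and 0 in KDAC4 H976Y, and 0, 1 and 2 with TMP195. The 4 KDAC7 H709A libraries together allow up to 0.0486 CPM, the level of 3 counts over the group, and no group had more than 3 counts. No fold is given, since all groups are at or under that floor. The floors of the 4 groups ran from 0.0486 to 0.0980 CPM. A difference in ABCG1 between groups under such levels was therefore not detectable at this depth.

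The receptors varied less. NR1H2 (ENSG00000131408, chr19:50329653-50382982, plus strand) overlaps genes on the opposite strand, among them NAPSB, NAPSA and AC008655.2, none of which exceeded 0.781 CPM. It stood at 32.0, 62.2 and 50.2 CPM in KDAC4 H803A, at 49.3, 46.8, 49.6 and 35.4 in KDAC7 H709A, at 65.5, 66.1, 61.0 and 42.4 in KDAC4 H976Y and at 59.2, 60.0 and 50.2 with TMP195. The groups overlapped in 5 of the 6 comparisons; only TMP195 against KDAC7 H709A did not, with 56.5 ± 5.49 against 45.3 ± 6.70 CPM. That difference was 0.32 ± 0.23 on the log2 scale. Means were 58.7 ± 11.1 CPM in KDAC4 H976Y and 48.1 ± 15.2 in KDAC4 H803A, and no neighbours in the order of the 4 groups differed beyond their spread. NR1H2 was called in no comparison, with log2 fold changes from -0.38 to 0.32. Without the 3 libraries its means were 56.2 ± 8.48 CPM (n = 2) in KDAC4 H803A and 48.2 ± 2.03 (n = 2) in KDAC7 H709A, and it was again called in none. Its lowest 2 libraries were KDAC4 H803A replicate 1 and KDAC7 H709A replicate 4, 2 of the 3 in which ABCA1 was low. In the third, KDAC7 H709A replicate 1, NR1H2 stood at 49.3 CPM, near the top of its group. Across the 14 libraries the correlation of NR1H2 with ABCA1 was 0.58, and the genes most like NR1H2 were HPS6 (0.95), HIST4H4 (0.95) and TRIM28 (0.94).

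NR1H3 (ENSG00000025434, chr11:47248300-47269032, plus strand) overlaps ACP2, a lysosomal phosphatase gene on the opposite strand that reached 21.0 CPM, so a part of the NR1H3 reads may belong to ACP2 or the reverse. NR1H3 stood at 4.12, 6.30 and 6.91 CPM in KDAC4 H803A, at 4.73, 2.95, 3.00 and 3.23 in KDAC7 H709A, at 4.50, 4.36, 5.20 and 3.09 in KDAC4 H976Y and at 3.30, 2.75 and 3.54 with TMP195. All KDAC4 H803A libraries lay above all TMP195 libraries, and every other pair of groups overlapped. The means fell in the order KDAC4 H803A (5.77 ± 1.47), KDAC4 H976Y (4.29 ± 0.878), KDAC7 H709A (3.48 ± 0.843) and TMP195 (3.20 ± 0.408), and no neighbours in it differed beyond their spread. NR1H3 was called in no comparison; its lowest log2 fold changes were -0.85 ± 0.32 for TMP195 and -0.73 ± 0.29 for KDAC7 H709A, both against KDAC4 H803A. Without the 3 libraries these became -1.04 ± 0.25 and -1.13 ± 0.29, and both were then called, as were 47.9 and 60.2% of all genes in those comparisons. The correlation of NR1H3 with ABCA1 was 0.09, and that with NR1H2 was 0.28. The genes most like NR1H3 were TSR3 (0.90), ARL6IP4 (0.89) and C11orf71 (0.88).

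MYLIP (ENSG00000007944, chr6:16129125-16148248, plus strand) was lowest with TMP195. It stood at 5.02, 4.52 and 5.22 CPM with TMP195, at 11.7, 6.78 and 7.79 in KDAC4 H803A, at 9.27, 10.2, 13.2 and 10.8 in KDAC7 H709A and at 7.32, 7.87, 6.71 and 9.06 in KDAC4 H976Y. All 3 TMP195 libraries lay below all 11 variant libraries, and KDAC7 H709A lay above KDAC4 H976Y without overlap. The means were 10.9 ± 1.68 CPM in KDAC7 H709A, 8.74 ± 2.57 in KDAC4 H803A, 7.74 ± 1.00 in KDAC4 H976Y and 4.92 ± 0.359 with TMP195. The step from KDAC4 H976Y to TMP195 exceeded the spread of both groups, and the 2 higher steps did not. TMP195 against KDAC7 H709A gave -1.14 ± 0.24 on the log2 scale, a level 2.21 times lower, and was the only MYLIP comparison called. The call ended in 5 of 25 alternatives: without a filter, with the replicate block, and without each of the 3 TMP195 libraries in turn, where the log2 fold change stayed between -1.19 and -1.10. TMP195 against KDAC4 H803A (-0.83 ± 0.25) and against KDAC4 H976Y (-0.65 ± 0.24) were not called. The 3 comparisons share the TMP195 libraries. Without the 3 libraries nearest to another group, the TMP195 log2 fold changes of MYLIP were -0.56 ± 0.21, -0.65 ± 0.18 and -1.27 ± 0.20 against KDAC4 H803A, KDAC4 H976Y and KDAC7 H709A. All 3 were called in that fit, as was KDAC7 H709A against KDAC4 H976Y (0.62 ± 0.19) and against KDAC4 H803A (0.71 ± 0.22). In that fit the 5 comparisons, in the order given, called 47.9, 53.9, 45.7, 31.8 and 60.2% of all genes, so nothing particular to MYLIP is read from these calls.

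Among the 3 genes most like MYLIP were DDX58 (r = 0.96), which codes for the RNA sensor RIG-I, and CAAP1 (0.95). DDX58 was 8.51 to 9.10 CPM with TMP195, 16.5 to 18.3 in KDAC4 H976Y and 17.2 to 39.4 in the other variant libraries. MYLIP and NR1H2 had a correlation of -0.63 over the 14 libraries, and MYLIP and ABCA1 one of -0.19. MIR4639, which lies inside MYLIP on the same strand, was listed at 0 in every library.

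**Figure D3:**
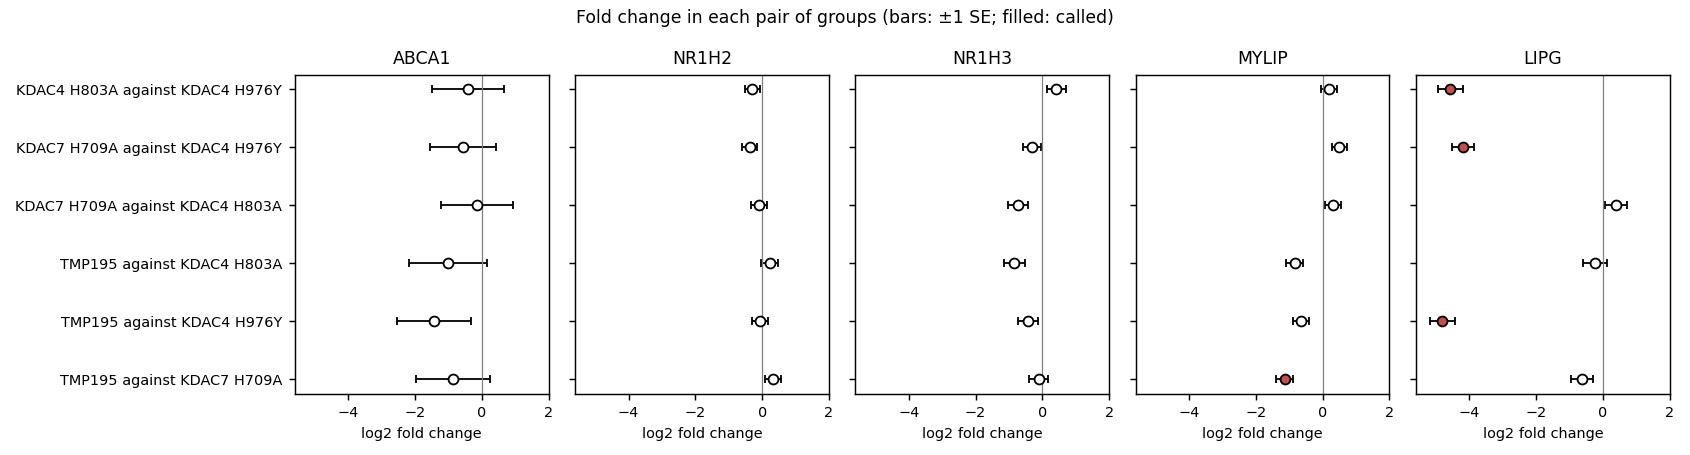
Log2 fold change (horizontal axis) of the 5 genes in each of the 6 pairs of groups (rows, first group minus second). Points are edgeR estimates, bars are 1 SE on each side, and filled points were called: LIPG in the 3 comparisons with KDAC4 H976Y and MYLIP in TMP195 against KDAC7 H709A.

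The counts of the 5 tested genes are to be read beside those of all 17780. KDAC4 H803A against KDAC4 H976Y called 1 of the 5, LIPG, lower, against 15.1% of all genes (9.21% higher, 5.85% lower). KDAC7 H709A against KDAC4 H976Y called LIPG lower, against 12.5% of all genes (7.28% higher, 5.19% lower). TMP195 against KDAC4 H976Y called LIPG lower, against 16.5% (7.96% higher, 8.55% lower). TMP195 against KDAC7 H709A called MYLIP lower, against 6.29% (1.99% higher, 4.31% lower). In these 4 comparisons 1 gene of 5 is close to or above the background, and nothing is read from it. TMP195 against KDAC4 H803A called none of the 5, against 5.34% (1.56% higher, 3.78% lower). KDAC7 H709A against KDAC4 H803A called none of the 5 and 0% of all genes (0% higher, 0% lower) with edgeR, which gave 1118 genes at an unadjusted p under 0.05, while DESeq2 called 79.

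Groups did not overlap for 1, 2, 0, 3, 3 and 2 of the 5 genes in, respectively, the comparison of KDAC4 H803A with KDAC4 H976Y, that of KDAC7 H709A with each of these (KDAC4 H976Y first), and that of TMP195 with KDAC4 H803A, KDAC4 H976Y and KDAC7 H709A. Over all genes the shares without overlap were 23.1, 20.1, 2.01, 24.3, 53.8 and 24.3%. The median log2 fold change of the 5 genes was -0.83 for TMP195 against KDAC4 H803A, -0.65 against KDAC4 H976Y and -0.63 against KDAC7 H709A, beside -0.11, 0.03 and -0.07 over all genes.

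The wider pathway was described from 9 lists of 86 genes, of which 85 were in the table and 57 were tested. KDAC4 H803A against KDAC4 H976Y called 7 of the 57 higher and 2 lower (12.3 and 3.51%, beside 9.21 and 5.85% of all genes). KDAC7 H709A against KDAC4 H976Y called 6 higher and 2 lower (10.5 and 3.51%, beside 7.28 and 5.19%). TMP195 against KDAC4 H976Y called 4 higher and 7 lower (7.02 and 12.3%, beside 7.96 and 8.55%). TMP195 against KDAC7 H709A called 1 higher and 7 lower (1.75 and 12.3%, beside 1.99 and 4.31%). TMP195 against KDAC4 H803A called 1 higher and 0 lower (1.75 and 0%, beside 1.56 and 3.78%). The median log2 fold changes of the 57 in these 5 comparisons were -0.09, 0.15, -0.16, -0.23 and -0.19, beside 0.09, 0.09, 0.03, -0.07 and -0.11 over all genes. Without the 3 libraries they were -0.47, 0.20, -0.15, -0.39 and 0.11, beside 0.03, 0.0053, 0.03, 0.03 and 0.0041 over all genes. The last changed sign, with 19 called higher and 18 lower where 47.9% of all genes were called. The first then called 16 higher and 29 lower, where 64.5% of all genes were called. Nothing particular to the lists is read from these shares. KDAC7 H709A against KDAC4 H803A called 0. All 37 of these calls were also made, in the same direction, without the 3 libraries, in the fit that called 31.8 to 64.5% of all genes, but only 9 of the 37 were kept in every alternative. Leaving out TMP195 replicate 1, 2 or 3 ended 18, 19 or 18 of the 37 calls, and leaving out KDAC4 H976Y replicate 1, 2 or 3 ended 16, 18 or 16. Each of the other 8 libraries, left out alone, ended 1 to 12.

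Of the 9 other target genes of the liver X receptors tested, 3 fell with TMP195 against KDAC7 H709A, 2 fell against KDAC4 H976Y and 0 were called against KDAC4 H803A. Of all genes, 4.31, 8.55 and 3.78% were called lower there. None of the 9 rose, beside 1.99, 7.96 and 1.56% of all genes. These comparisons share the TMP195 libraries. The median log2 fold change of the 9 was -1.11, -0.63 and -0.97 in them, beside -0.07, 0.03 and -0.11 over all genes. Without the 3 libraries nearest to another group it was -0.89, -0.64 and -0.60, beside 0.03, 0.03 and 0.0041 over all genes. SCD, the desaturase that makes oleic acid, stood at 142 to 179 CPM with TMP195 and at 327 to 1604 CPM in KDAC7 H709A, a log2 fold change of -2.75 ± 0.61 (edgeR, adjusted p = 0.0184). FASN, fatty acid synthase, was 508 ± 22.7 CPM with TMP195 and 1096 ± 300 CPM in KDAC7 H709A (-1.11 ± 0.26, adjusted p = 0.0212). Both are also driven by SREBP factors. The calls ended in 4 and 5 of 25 alternatives, with an adjusted p of at most 0.103. The log2 fold changes without the 3 libraries were -3.19 ± 0.21 for SCD and -1.19 ± 0.14 for FASN.

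MLXIPL, the carbohydrate-response factor ChREBP, had 0 counts in the 3 TMP195 libraries and 47 in the 4 KDAC4 H976Y libraries, at least 24.1-fold higher there with the floor of 3 counts over the group. Its call ended in 1 of 25 alternatives, with an adjusted p of 0.0541. Of the 15 listed targets, APOC1, PLTP, LPL, CETP, ABCG5 and ABCG8 did not pass the filter.

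Among the receptors' partners and coregulators (8 tested), KDAC4 H803A against KDAC4 H976Y called 2 higher and 1 lower, beside 9.21 and 5.85% of all genes. TMP195 against KDAC4 H976Y called 1 higher and 1 lower, beside 7.96 and 8.55%. RXRA, the retinoid X receptor that pairs with both liver X receptors, was 57.5 ± 28.6 CPM in KDAC4 H803A, 55.1 ± 2.47 with TMP195, 38.3 ± 13.7 in KDAC7 H709A and 24.8 ± 2.22 in KDAC4 H976Y. Its KDAC4 H803A and KDAC4 H976Y libraries overlapped. It rose against KDAC4 H976Y in KDAC4 H803A (1.21 ± 0.34, adjusted p = 0.0315) and with TMP195 (1.15 ± 0.34, adjusted p = 0.0350). NRIP1, a corepressor of nuclear receptors, fell against KDAC4 H976Y in KDAC4 H803A (-1.14 ± 0.34, adjusted p = 0.0377) and with TMP195 (-1.04 ± 0.33, adjusted p = 0.0499). Alternatives ended these calls often, in 8 of 25 for each RXRA call, and in 11 and 13 for NRIP1, with the largest adjusted p between 0.123 and 0.179. KDAC4 H803A against KDAC4 H976Y gave 1.56 ± 0.12 for RXRA and -1.54 ± 0.16 for NRIP1 without the 3 libraries. Libraries also differed in GC content, measured as the median log2 deviation of GC-rich minus that of GC-poor genes. The 3 KDAC4 H803A libraries stood at -1.08, 1.36 and 1.29 on this scale and the 4 KDAC7 H709A libraries at 1.19, -0.48, -0.95 and -1.11, so both groups were split. The KDAC4 H976Y libraries lay between -0.51 and -0.27 and those with TMP195 between 0.35 and 0.53. With each library's GC and length trend removed, the log2 fold change of RXRA in KDAC4 H803A against KDAC4 H976Y was 0.56 ± 0.15 (adjusted p = 0.0178).

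In cholesterol transport (13 tested), KDAC4 H976Y stood low for 2 genes. ABCA2, a relative of ABCA1 that works in endolysosomes, was 35.9 to 41.8 CPM in KDAC4 H976Y and 61.4 CPM or more in every other library. It rose against KDAC4 H976Y in KDAC4 H803A (1.94 ± 0.40, adjusted p = 0.00724), in KDAC7 H709A (1.302 ± 0.37, adjusted p = 0.0369) and with TMP195 (1.53 ± 0.40, adjusted p = 0.0199), and the first of these calls ended in no alternative while the others ended in 11 and 6. The first was 0.99 ± 0.10 with the GC and length trend removed (adjusted p = 3.26e-05), and without the 3 libraries the KDAC4 H803A and KDAC7 H709A values were 2.31 ± 0.11 and 0.90 ± 0.12. GRAMD1C, of the Aster family of sterol transfer proteins, rose in the same 3 comparisons by 3.20 ± 0.86, 3.29 ± 0.83 and 2.77 ± 0.86 (adjusted p of 0.0261, 0.0201 and 0.0432) from 0.263 ± 0.199 CPM. These calls ended in 4 of 24, 3 of 25 and 11 of 25 alternatives. The KDAC4 H803A libraries stood at 4.88, 0.484 and 1.43 CPM, and without replicate 1 the log2 fold change was 1.92 ± 0.82 and no longer called (adjusted p = 0.0703). Without all 3 libraries it was 1.94 ± 0.74, and 2.95 ± 0.66 in KDAC7 H709A. With voom the KDAC4 H803A value was 2.45 and the TMP195 value 3.41; the latter was 3.56 with the replicate block and the GC and length trend removed.

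STARD4, a soluble sterol carrier, was 9.36 to 10.9 CPM with TMP195, below every KDAC4 H976Y library (35.2 to 46.2) and every KDAC7 H709A library (21.4 to 111). It fell by 2.10 ± 0.64 and 2.67 ± 0.66 on the log2 scale (adjusted p = 0.0410 and 0.0300), and these calls ended in 10 and 7 of 25 alternatives. With the GC and length trend removed the values were -1.33 ± 0.28 and -1.63 ± 0.28, and without the 3 libraries the second was -3.13 ± 0.20. The low STARD4 level was not particular to TMP195. KDAC4 H803A replicates 2 and 3 stood at 9.40 and 10.2 CPM and replicate 1 at 62.9 CPM, and TMP195 against KDAC4 H803A was not called. GRAMD1B was lower in KDAC7 H709A, at 60.8 ± 10.3 CPM, than in KDAC4 H976Y, at 102 ± 1.73 CPM (-0.75 ± 0.15, adjusted p = 0.00517), or with TMP195, at 97.3 ± 3.03 CPM (0.68 ± 0.16 for TMP195 minus KDAC7 H709A, adjusted p = 0.0216). Its calls ended in 1 and 11 alternatives, and without the 3 libraries its values were -0.88 ± 0.12 and 0.81 ± 0.13. ABCG4 and APOA1 did not pass the filter.

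**Figure D4:**
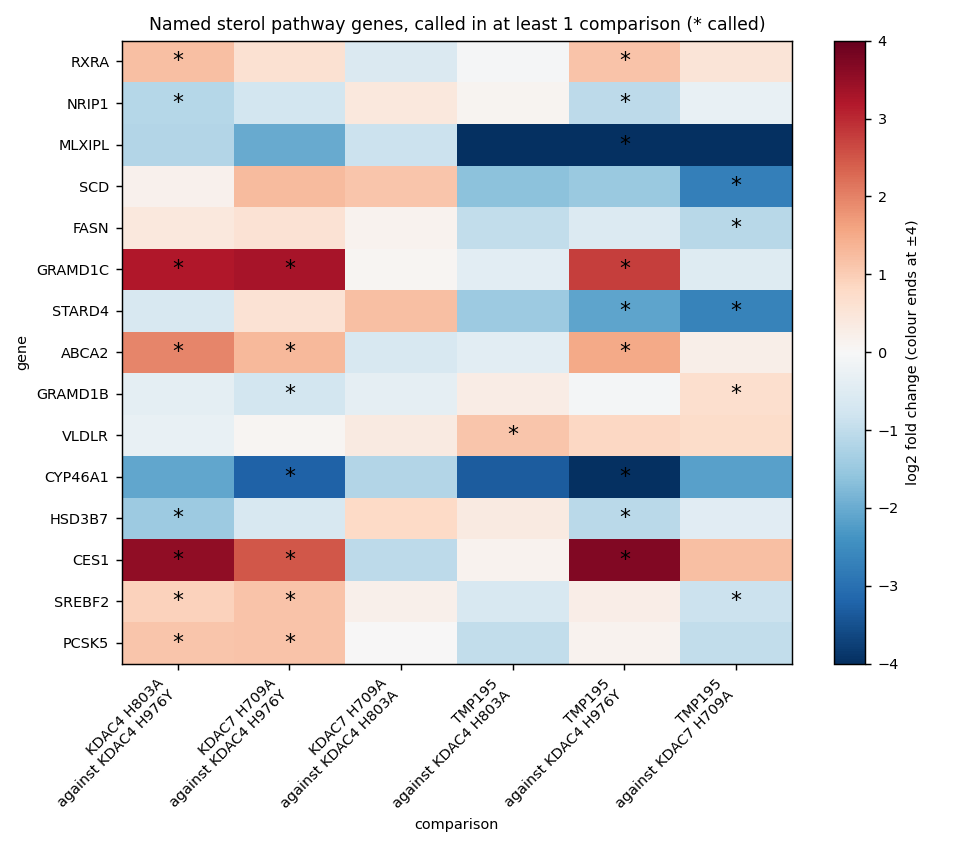
Log2 fold change (colour, first group minus second, ending at 4 in both directions) of 15 named list genes in each comparison; asterisks mark calls. In TMP195 against KDAC7 H709A, SCD, FASN, STARD4 and SREBF2 are called lower and GRAMD1B higher.

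VLDLR, a lipoprotein receptor that MYLIP is known to target, was the 1 gene called with TMP195 against KDAC4 H803A among 5 tested of lipoprotein uptake. Of the 5, TMP195 called 1 lower against KDAC4 H976Y and 1 lower against KDAC7 H709A, beside 8.55 and 4.31% of all genes. VLDLR was 59.8 to 68.1 CPM with TMP195 and 20.9 to 42.3 CPM in KDAC4 H803A (1.12 ± 0.29, adjusted p = 0.0389), a call that 13 of 25 alternatives ended. Of all genes, 1.56% were called higher there. Its value without the 3 libraries was 1.47 ± 0.15. MYLIP was not called against KDAC4 H803A, and a link between MYLIP and VLDLR was not tested. CD36, MSR1 and OLR1 did not pass the filter. None of the 5 tested ubiquitin partners of MYLIP was called in any comparison, beside 0 to 16.5% of all genes.

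SREBF2, the main transcription factor of cholesterol synthesis, was the 1 gene called among 6 of sterol sensing. It was 151 ± 10.8 CPM in KDAC4 H976Y, 181 ± 7.90 with TMP195, 285 ± 34.2 in KDAC4 H803A and 331 ± 58.2 in KDAC7 H709A. In both alanine variants it rose against KDAC4 H976Y, by 0.92 ± 0.17 (adjusted p = 0.00366) and 1.13 ± 0.16 (adjusted p = 0.000634), and with TMP195 it fell by 0.87 ± 0.17 against KDAC7 H709A (adjusted p = 0.00901). These 3 calls ended in 2, 0 and 3 of 25 alternatives, and without the 3 libraries the values were 0.94 ± 0.13, 1.32 ± 0.13 and -1.06 ± 0.14. In the 3 comparisons, in that order, 9.21% of all genes were called higher, 7.28% higher and 4.31% lower.

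Enzymes that make or clear oxysterols, the ligands of the receptors, were mostly below the filter: 3 of 9 were tested, CYP46A1 and HSD3B7 among them, and CYP27A1, CH25H and CYP7B1 were not. CYP46A1, cholesterol 24-hydroxylase, had 40 counts in the 4 KDAC4 H976Y libraries and 1 in the 3 TMP195 libraries, a ratio of 61.6 with a 95% counting interval from 10.4 to 2491 (edgeR, adjusted p = 0.00245). It fell against KDAC4 H976Y in KDAC7 H709A as well (-3.24 ± 0.71, adjusted p = 0.00959). HSD3B7, an enzyme of bile acid synthesis, was 9.41 ± 1.31 CPM in KDAC4 H976Y and fell in KDAC4 H803A (-1.44 ± 0.33, adjusted p = 0.0117) and with TMP195 (-1.08 ± 0.32, adjusted p = 0.0354), calls that ended in 1 and 9 alternatives. Those of CYP46A1 ended in none, although the 1 TMP195 count lies in replicate 2. CYP46A1 in KDAC7 H709A was -2.75 ± 0.67 and HSD3B7 in KDAC4 H803A was -1.59 ± 0.32 without the 3 libraries.

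CES1, a carboxylesterase that can release cholesterol from its esters, was the 1 gene called among 4 of ester storage. It was 0.107 ± 0.124 CPM in KDAC4 H976Y and rose to 1.58 ± 0.405 in KDAC4 H803A, 0.755 ± 0.161 in KDAC7 H709A and 1.74 ± 0.134 with TMP195 (3.56 ± 0.64, 2.50 ± 0.63 and 3.70 ± 0.63, adjusted p of 0.00346, 0.0199 and 0.00197). No alternative that tested CES1 ended any of the 3 calls, and without the 3 libraries the first 2 values were 3.63 ± 0.64 and 2.41 ± 0.69. CES1 in KDAC4 H976Y was near the floor of that group, 0.0980 CPM for 3 counts, and reached at most 0.217 CPM. The size of these 3 changes is therefore uncertain. Of all genes, 9.21, 7.28 and 7.96% were called higher in these comparisons.

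Of the 12 other lipase genes and regulators in the table, 4 were tested, and LPL, LIPC, GPIHBP1 and ANGPTL4 were not among them. PCSK5, a proprotein convertase known to cleave endothelial lipase, was 2.86 ± 0.679 CPM in KDAC4 H976Y, where LIPG was high, 3.16 ± 0.318 with TMP195, 6.22 ± 1.39 in KDAC4 H803A and 6.28 ± 1.12 in KDAC7 H709A. It rose against KDAC4 H976Y in both alanine variants, by 1.12 ± 0.28 (adjusted p = 0.0195) and 1.13 ± 0.26 (adjusted p = 0.0134), which 8 and 2 of 25 alternatives ended. The values without the 3 libraries were 1.25 ± 0.25 and 1.32 ± 0.25. No other tested gene of the list was called. Of all genes, 9.21 and 7.28% were called higher in the 2 comparisons that called PCSK5.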

How the data were processed

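Expected counts per gene, as the authors deposited them in 1 table, were not scaled between libraries. Trimmomatic 0.39, Bowtie2 2.4.5, RSEM 1.3.3, DESeq2 1.38.2 and the build GRCh38 are named, with no roles, per the submitters' processing notes; the annotation release is not given in the sources used here, nor is the strand setting. In the column of KDAC4 H803A replicate 4, 96.8% of 7612 single-transcript genes equalled the transcript length minus 248.86 bases (within 0.02), so it was not used. Of 60675 gene IDs, 57055 matched GENCODE v29, and 0 value columns were left unmapped.

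Expected counts were rounded. Genes were filtered with filterByExpr (minimum count 10, minimum total 15), scaled by TMM and fitted for all 4 groups with edgeR 4.0.16's quasi-likelihood test (R 4.3.3), adjusted by Benjamini-Hochberg over 17780 genes and called under 0.05. SEs are the fold change over the square root of F. The script was tested on simulated data. CPM are per scaled library size; 1 CPM stands for 4.86 to 23.9 counts. Floors and counting intervals cover counting error only. Promoters are from RefSeq (GRCh38.p14).

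The genes, lists and tests were chosen with earlier results of these data known. Named genes are all 6 genes, up to 4 called genes per pathway list by size of change, the 3 best-correlated genes per tested gene, and overlapping genes. The alternatives were 12 kinds, among them DESeq2 1.42.0, limma 3.58.1 voom, GC and length offsets, a replicate block and each library left out in turn. Results of some genes are not reported here.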

Additional observations from a re-analysis of the deposited data

Results flagged for a closer look

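In groups of 4 libraries, 3 values of the 6 genes lay far from the other 3 of their group by Dixon's criterion, which by chance marks about 1 group in 20. LIPG in KDAC4 H976Y replicate 4 was 41.8 CPM, below 55.2 to 56.6 CPM in the other libraries of the group; this library also had the fewest total counts, 6151417, and the largest share of mitochondrial ribosomal RNA, 31.5%. NR1H3 in KDAC7 H709A replicate 1 was 4.73 CPM, above 2.95 to 3.23 CPM in the others. ABCG1 in KDAC4 H976Y replicate 3 was 0.108 CPM, which is 1 count where the other libraries had 0.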

How the results depend on the processing

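Alternatives gave 750 values for the 30 fold changes of the 5 tested genes. The call stayed the same in 687, was gained in 31, was lost in 5, all for MYLIP in TMP195 against KDAC7 H709A, and the direction turned in 27, none of which was called on either side. LIPG kept its 3 calls throughout.

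The counts of called genes moved with the test, the samples in the fit and single libraries; voom changes the test and weights libraries at once. In the order KDAC4 H803A with KDAC4 H976Y, KDAC7 H709A with KDAC4 H976Y and with KDAC4 H803A, and TMP195 with KDAC4 H803A, KDAC4 H976Y and KDAC7 H709A, edgeR called 2679, 2218, 0, 949, 2936 and 1119 genes. DESeq2 called 4377, 3394, 79, 1936, 4493 and 2484, voom with sample weights 12673, 7278, 10954, 9776, 12468 and 8840, and edgeR without the 3 libraries nearest to another group 11848, 5829, 11044, 8792, 9895 and 8392. Leaving out 1 library at a time gave 1129 to 8431, 1215 to 3440, 0 to 4788, 436 to 2695, 1307 to 5079 and 422 to 2755, with the highest count without KDAC4 H803A replicate 1 in the first 5 and without KDAC7 H709A replicate 1 in the last. Without a filter, KDAC7 H709A against KDAC4 H803A called 14. With only the 2 groups compared, the first comparison called 1634, TMP195 against KDAC4 H803A 366 and TMP195 against KDAC4 H976Y 9576. With GC and length offsets, KDAC7 H709A against KDAC4 H976Y called 3447. The cause was not tested.

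Samples with the same replicate number did not deviate together: the median correlation was -0.10 over 19 such pairs (5 over 0.1) and 0.05 over 54 others. With the replicate block, the counts were 1230, 1322, 0, 563, 1556 and 453, and 690 for TMP195 against KDAC7 H709A with the block and the offsets; MYLIP lost its call there with the block alone.

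Directions that turned, as log2 fold changes, were these. ABCA1 without the 3 libraries was 0.12 and 0.38 for KDAC4 H803A and KDAC7 H709A against KDAC4 H976Y and 0.27 between them; leaving out 1 library gave -1.0 to 0.12 for the first and -0.71 to 0.43 for the last; TMP195 against KDAC7 H709A was 0.15 with the replicate block and offsets. NR1H2 in KDAC7 H709A against KDAC4 H803A was 0.42 with offsets, 0.055 with the replicate block, 0.50 with both, and -0.29 to 0.14 without 1 library. NR1H2 with TMP195 was 0.063 against KDAC4 H976Y with upper-quartile scaling (-0.21 to 0.021 without 1 library) and, against KDAC7 H709A, -0.022 with offsets and -0.10 with the replicate block and offsets. NR1H3 in TMP195 against KDAC7 H709A was 0.025 with voom, 0.092 without the 3 libraries and -0.20 to 0.070 without 1. MYLIP in KDAC4 H803A against KDAC4 H976Y was -0.031, -0.092 and -0.10 to 0.34 in these settings, and LIPG in KDAC7 H709A against KDAC4 H803A -0.075, -0.11 and -0.090 to 0.58. Depth limits ABCG1, which no setting could test with the filter.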
